A study of Mus musculus with 8 samples.

Results

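Metabotropic glutamate receptors are the G protein-coupled receptors for glutamate, and 6 of their genes are described here in ribosome-bound RNA of cortical synaptosomes: Grm5 of group I, Grm2 and Grm3 of group II, and Grm4, Grm7 and Grm8 of group III. They were selected by gene symbol and not by their values, and all 6 were found among the 56576 genes of the deposited table. Each of the 6 passed the minimum level for testing, an average of 10 or more normalized counts in 1 or both genotypes, as did 31171 genes in all.

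The study asked which transcripts at the synapses of interneurons depend on the receptor tyrosine kinase ErbB4. It compared 4 libraries from control mice (Lhx6-Cre;Erbb4+/+;Rpl22HA/HA) with 4 from conditional mutants, whose genotype was Lhx6-Cre;Erbb4F/F;Rpl22HA/HA, both from cortex at postnatal day 15, with males and females used without distinction in the study. Both genotypes carried Lhx6-Cre, a driver of recombination in interneurons of the medial ganglionic eminence (MGE), and both carried the homozygous Rpl22HA allele, by which Cre puts a hemagglutinin tag on a ribosomal protein. Synaptosomes, the pinched-off terminals and adhering postsynaptic membranes of homogenized tissue, were incubated with anti-HA beads, and the RNA that came down with tagged ribosomes was sequenced. The same Cre line therefore drove both the tag and the loss of Erbb4, and loss was not limited to 1 interneuron class or to 1 age. The replicates were described as biological, from different brains and litters, and replicate numbers are those of the labels (1, 3, 4 and 5 in controls, 2, 3, 4 and 5 in mutants).

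Metabotropic glutamate receptors fall into 3 groups by sequence and signalling. Group I receptors couple to Gq proteins, which activate phospholipase C and release calcium from internal stores, and they sit mostly around the edge of the postsynaptic density. Group II and group III receptors couple to Gi and Go proteins, which lower cAMP and act on ion channels. Many of them lie on axons and terminals, where they reduce transmitter release, and Grm3 and Grm5 are also made by astrocytes.

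Reads on genes ran from 51010687 to 80226984 per library, and the 6 receptors held between 339 and 7070 reads each in a library, so counting error was small beside the spread between libraries. Erbb4, the deleted gene, had normalized counts of 1640, 5377, 4306 and 3034 in control replicates 1, 3, 4 and 5 and of 1711, 1648, 1233 and 1048 in the mutants, so that the library labelled control replicate 1 lay at the level of the mutants. Of 13 markers of MGE interneurons all were below 0 in log2 fold change (median -1.02) and 4 were called lower (Gad1, Gad2, Kcnc1 and Pvalb), with a summed level of 86944 to 615280 in controls and 33882 to 241920 in mutants. Among all genes tested 46.6% were below 0 and 3.17% were called lower, and 0 of the 13 markers had an adjusted p under 0.05 by limma. None of the 13 was at 0 in any library. The 11 markers of excitatory neurons and the 11 of astrocytes were also detected in every library, in a pulldown meant for interneurons. Some were abundant: in controls Slc17a7 (excitatory) averaged 109120 and Aldoc (astrocyte) 88600 normalized counts, beside 170460 for Sst and 4920 for Gad1. How much of each receptor's signal came from tagged interneurons was not tested. The libraries are bulk RNA, so fewer cells of a type and less RNA per cell cannot be told apart.

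Of the 6 receptors, 0 were called at the limits used in the study (a fold change of 1.5 or more and an unadjusted p no higher than 0.05), and 0 had an unadjusted p under 0.05 by limma. Among all genes tested 7.15% were called, 3.17% lower and 3.98% higher in the mutants, and 0.0449% had a Benjamini-Hochberg adjusted p under 0.05. Those shares are 988 lower and 1241 higher genes, which became 417 and 2263 when the same reads were scaled to each library's total (CPM) and 1573 and 1261 with DESeq2. Receptor fold changes lay on both sides of 0, with 4 of 6 below it, beside 46.6% of all genes tested. Their median was -0.08 on the log2 scale and that of all genes tested was 0.06. With values scaled as CPM, the median of all genes tested moved to 0.24, so that signs near 0 depend on the scaling.

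**Figure D1:**
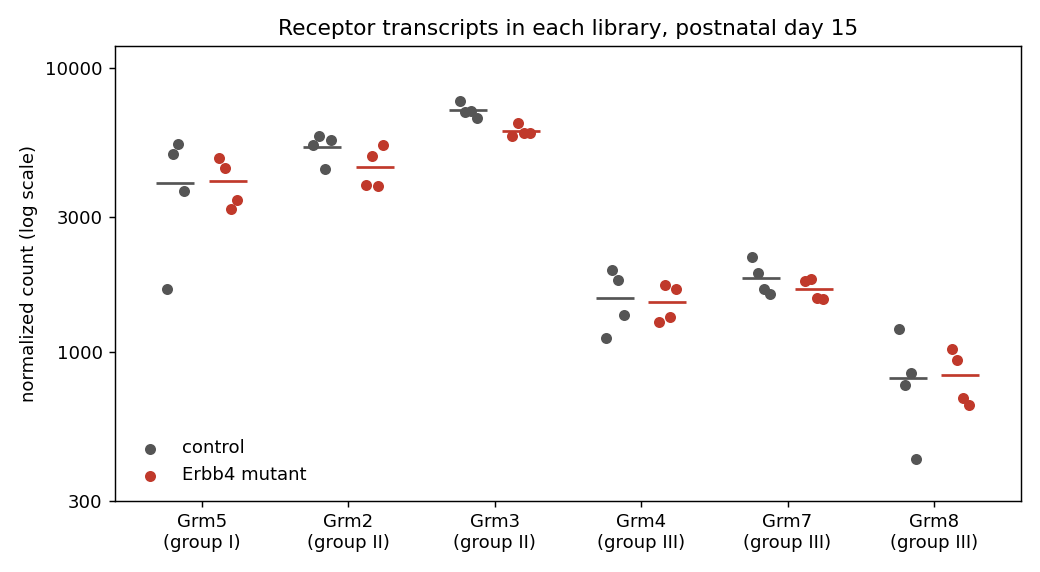
Normalized count (log scale) of each receptor in each library, with 4 controls in grey and 4 Erbb4 mutants in red, placed in order of replicate number, and the mean of each genotype as a line. The genotypes overlap for every receptor but Grm3, and control replicate 1 lies far below the other libraries for Grm5.

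Grm3 and Grm2 are the group II receptors, a closely related pair that respond to many of the same agonists. Of the 6 receptors they had the highest levels per length. The bases upstream of their annotated starts are shown because this pair held most of the receptor transcripts per length and Grm3 was the 1 receptor whose genotypes did not overlap. They are 250-base windows from RefSeq on GRCm38.p6, both on the minus strand and written 5′ to 3′ up to the base before the start, chr5:9725353-9725602 for Grm3 and chr9:106656110-106656359 for Grm2. Capitals mark the GC box, the letters GGGCGG, searched on both strands (CCGCCC on the other).
Grm3: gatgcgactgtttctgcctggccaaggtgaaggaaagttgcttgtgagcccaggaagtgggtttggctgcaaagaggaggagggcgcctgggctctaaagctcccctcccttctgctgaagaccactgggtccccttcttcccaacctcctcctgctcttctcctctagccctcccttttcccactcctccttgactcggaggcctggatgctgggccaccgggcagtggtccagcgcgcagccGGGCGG
Grm2: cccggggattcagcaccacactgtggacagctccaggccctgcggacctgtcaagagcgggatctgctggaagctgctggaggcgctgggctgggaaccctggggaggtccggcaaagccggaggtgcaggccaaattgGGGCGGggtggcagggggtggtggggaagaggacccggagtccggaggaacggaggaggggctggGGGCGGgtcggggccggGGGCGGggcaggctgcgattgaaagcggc
The Grm3 window holds 1 GC box, at its last bases, and the Grm2 window holds 3, while 32.7% of 32851 promoter windows of that length hold at least 1. Their GC content was 62.4% and 71.2%, beside a median of 52.4% over all windows. Neither holds a TATA box (TATAAA, in 12.4% of windows), an E-box (CACGTG, in 6.02%) or the core of the cAMP response element (TGACG, in 17.8%), and a match or its absence says only which letters are in these windows. The bases after the RefSeq start of Grm3 were not found in a GENCODE transcript of the gene, and those of Grm2 were.

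Grm3 encodes mGlu3, which neurons carry on both sides of the synapse and astrocytes carry as well, and lies on chromosome 5 of mm10, from 9485236 to 9725352 on the minus strand. Its normalized counts were 7694, 7013, 7076 and 6692 in control replicates 1, 3, 4 and 5 and 5779, 6410, 5928 and 5938 in mutant replicates 2, 3, 4 and 5. Every mutant library was below every control library, so the genotypes did not overlap, as was the case in the same direction for 2.17% of all genes tested. The means were 7119 ± 419 in controls and 6014 ± 274 in mutants (SD, n = 4 each), and the fitted ratio was 0.845. An exact permutation test, two-sided, gave p = 0.029, the smallest that 4 against 4 libraries can give. This p was not adjusted over the receptors tested, among which Grm3 had the smallest, so it cannot stand as a finding for Grm3 alone. Over all genes, limma gave a log2 fold change of -0.24 (SE 0.16, 95% interval -0.59 to 0.11), with a Benjamini-Hochberg adjusted p = 0.61, so the change did not pass, and it was below the 1.5-fold threshold.

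The tests differed in how they treat spread. The exact permutation test uses no standard error, and once the genotypes do not overlap it gives its smallest p whatever the SD. The SD of Grm3 between libraries within a genotype was 0.0748 log2 units, smaller than that of all but 15 genes tested. The median was 0.344 over the 1685 genes within 1.5-fold of its level. From its own SD, the standard error of the Grm3 difference was 0.0529, whereas limma, which draws each gene's variance toward that of genes at a like level, used 0.158.

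The separation of the genotypes also depended on how libraries were scaled. In CPM, reads divided by all reads on genes, Grm3 had 107, 85.2, 106 and 106 in the controls and 90.6, 98.7, 96.1 and 101 in the mutants. On this scale control replicate 3 was the lowest of all 8 libraries, the genotypes overlapped, the log2 difference was -0.06 and the two-sided exact permutation p was 0.51. With quantile normalization they overlapped too (log2 difference -0.21, exact p = 0.057), and with TMM factors they did not (-0.22, exact p = 0.029). Leaving out control replicate 1 gave -0.20 with no overlap and an exact p of 0.057. The difference was below 0 under each of these scalings.

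**Figure D2:**
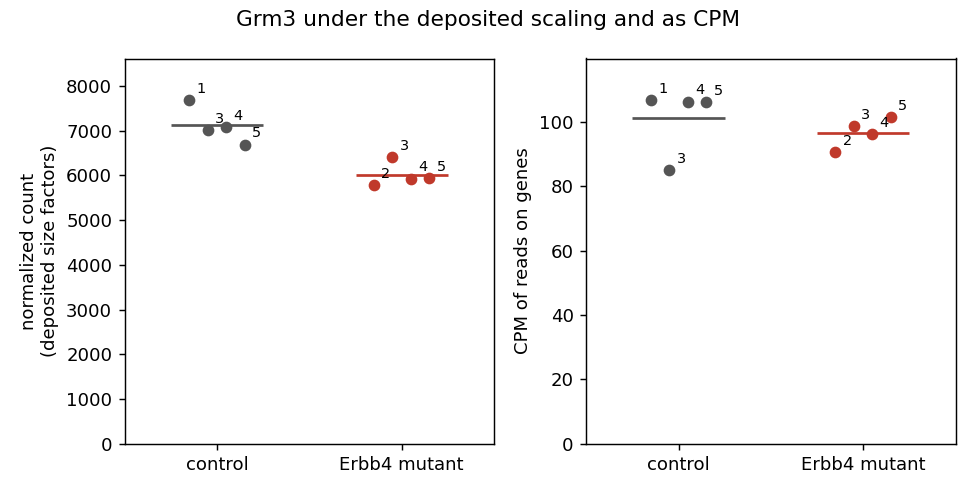
Grm3 in each library under the deposited size factors (left, normalized count) and as CPM of reads on genes (right), with axes from 0, replicate numbers beside the points and a line at each mean. All 4 mutants lie below the 4 controls on the left, and on the right control replicate 3, at 85.2, lies below every mutant.

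Grm2 encodes mGlu2, an autoreceptor and heteroreceptor of axons, and lies on chromosome 9, from 106643095 to 106656109 on the minus strand. Some of its exon bases are shared with an antisense gene, Gm28111, and the reads of the pair cannot be told apart if strand was not used. Normalized counts were 5366, 5789, 4435 and 5580 in the controls and 3892, 4910, 3837 and 5369 in the mutants. Mutant replicates 2 and 4 were below every control and the other two lay within the range of the controls. The means were 5293 ± 597 and 4502 ± 760 (SD, n = 4 each). The log2 fold change by limma was -0.24 (SE 0.19, 95% interval -0.66 to 0.17; adjusted p = 0.67), and the two-sided exact permutation p was 0.20. The interval excluded an increase of 1.5-fold but not a decrease of that size, and the same held for Grm3.

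Within a library the ratio of 2 receptors does not depend on the size factor, so the pairs were compared on their ratios. The log2 ratio of Grm2 to Grm3 in normalized counts was -0.43 ± 0.20 in controls and -0.43 ± 0.22 in mutants (SD, n = 4 each), in ranges that overlapped. Of the 15 pairs of receptors, 0 had a two-sided exact permutation p under 0.05 for the difference of their ratio between genotypes. The smallest p was 0.229, for Grm3 against Grm7 (difference -0.12, or 1.97 ± 0.12 in controls and 1.85 ± 0.12 in mutants), and the smallest adjusted over the 15 pairs was 0.943. None of the 15 ratios was separated between genotypes.

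**Figure D3:**
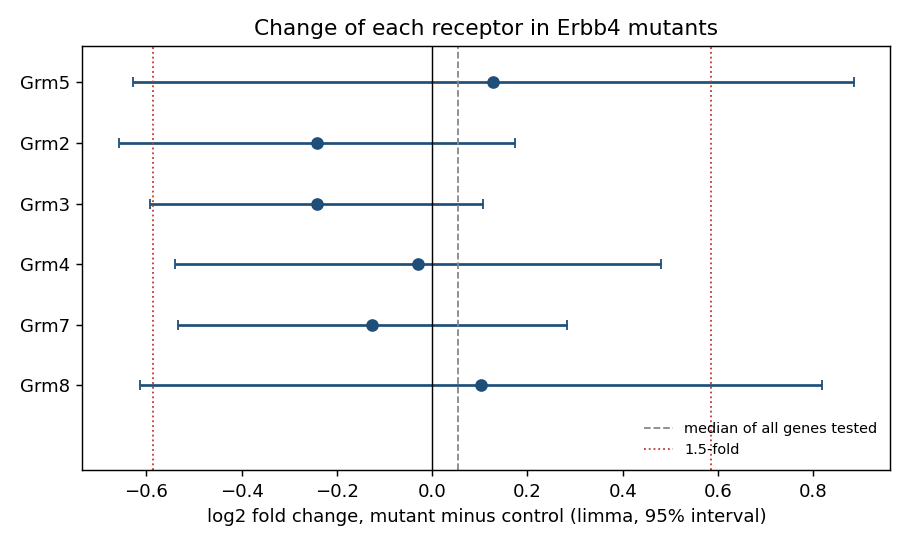
Log2 fold change of each receptor, mutant minus control, by limma on log2(normalized count + 1), with 95% intervals, the median of all 31171 genes tested (dashed) and 1.5-fold limits (dotted). Every interval includes 0, and those of Grm4 and Grm7 stay inside the 1.5-fold limits on both sides.

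Grm5 encodes mGlu5, the group I receptor of dendrites that is linked to the postsynaptic density by Homer proteins, and lies on chromosome 7, from 87584168 to 88135063 on the plus strand. Its normalized counts were 1674, 4995, 5437 and 3696 in the controls and 4851, 4475, 3206 and 3450 in the mutants. Control replicate 1 was the lowest of the 8 libraries, and the mutants overlapped the other 3 controls. The means were 3950 ± 1688 and 3996 ± 792 (SD, n = 4 each), with a log2 fold change of 0.13 (SE 0.34, 95% interval -0.63 to 0.88; limma adjusted p = 0.91). Without control replicate 1 the log2 fold change was -0.24, so the sign rested on that library. Control replicate 1 is also the control with Erbb4 at the level of the mutants. In other values it was not like them. Its summed level of MGE interneuron markers, 329270, was above that of the highest mutant, 241920. Its sum of oligodendrocyte markers, 673770, was the highest of the 8 libraries, and it had the fewest genes with a read, 28247. What set this library apart was not tested.

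Grm5 was among the more variable genes of its level. Its SD between libraries within a genotype was 0.584 log2 units, and 83.3% of 2257 genes within 1.5-fold of its level had a smaller one. The highest library held 3.25 times the Grm5 level of the lowest, compared with 1.33 times for Grm3. Without control replicate 1, the ratio of Grm5 to Grm8 was the 1 pair of 15 with an exact permutation p under 0.05 (two-sided, 0.029 before and 0.429 after adjustment over the pairs), at a log2 ratio of 2.84 ± 0.26 in 3 controls and 2.27 ± 0.08 in 4 mutants.

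**Figure D4:**
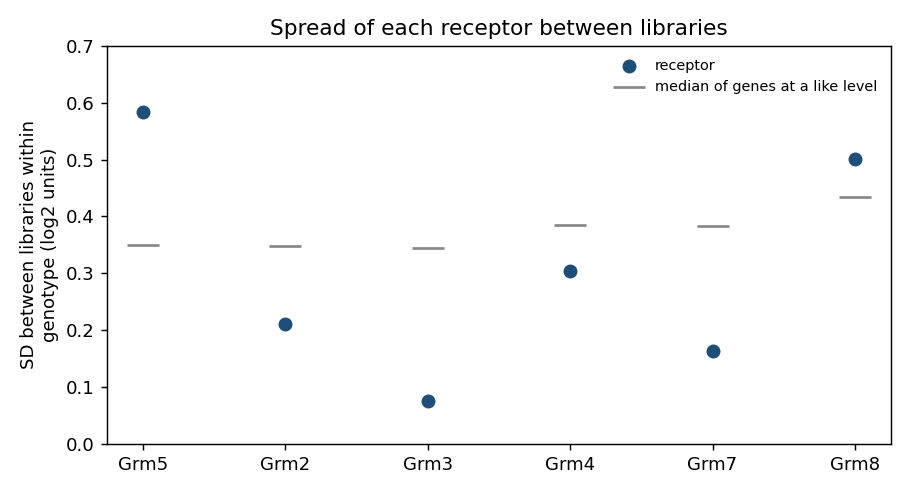
SD between libraries within a genotype, in log2 units of normalized count, for each receptor (points) beside the median of genes within 1.5-fold of its level (bars). Grm3, at 0.0748, is lowest, and Grm5 (0.584) and Grm8 (0.501) lie above the median of their levels.

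Grm7 encodes mGlu7, a receptor of the active zone that needs high concentrations of glutamate, and lies on chromosome 6, from 110364049 to 111567230 on the plus strand, sharing exon bases with an antisense gene, Gm20387. Normalized counts were 2157, 1895, 1666 and 1607 in the controls and 1781, 1814, 1557 and 1536 in the mutants. Mutant replicates 4 and 5 lay below every control and the other two among them. The means were 1831 ± 250 and 1672 ± 146 (SD, n = 4 each), and limma gave a log2 fold change of -0.13 (SE 0.19, 95% interval -0.53 to 0.28; adjusted p = 0.82). Scaled as CPM the difference was 0.06, on the other side of 0. Like Grm3, Grm7 varied little, with an SD of 0.163 log2 units within genotype, and 4.03% of 3175 genes of like level had a smaller one.

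Grm4 encodes mGlu4, another receptor of axon terminals, and lies on chromosome 17, from 27422390 to 27513397 on the minus strand. Normalized counts were 1119, 1954, 1791 and 1351 in the controls and 1280, 1719, 1332 and 1666 in the mutants. All mutants lay within the range of the controls. The log2 fold change was -0.03 (SE 0.23, 95% interval -0.54 to 0.48; limma adjusted p = 0.97), and was 0.02 with quantile normalization and 0.15 in CPM, so no direction can be given. For Grm4 and Grm7 the interval of this main fit excluded a change of 1.5-fold either way. Intervals under other scalings or without a library are not given, so the exclusion holds for the main fit only.

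Grm8 encodes mGlu8, a terminal receptor with high affinity for glutamate, and lies on chromosome 6, from 27275121 to 28135146 on the minus strand, where Mir592 shares exon bases with it. Normalized counts were 1202, 769, 846 and 419 in the controls and 1026, 940, 692 and 654 in the mutants. Controls held both the highest library, replicate 1, and the lowest, replicate 5, with the mutants between them. The means were 809 ± 321 and 828 ± 183 (SD, n = 4 each), with a log2 fold change of 0.10 (SE 0.32, 95% interval -0.61 to 0.82; limma adjusted p = 0.93). Without control replicate 5 it was -0.18 and without mutant replicate 2 it was -0.0090, so no direction can be given. Control replicate 1, low in Grm5 and Grm4, was the highest of the 8 libraries for Grm8.

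Levels of different receptors were compared per kilobase of the longest GENCODE transcript, since the lengths of the regions the authors counted are not given in the sources used here. On this scale Grm3 was highest, at 2335 ± 137 normalized counts per kilobase in controls and 1972 ± 90.0 in mutants (SD, n = 4 each), followed by Grm2 at 1124 ± 127 and 956 ± 161. Grm3 was above Grm2 in 8 of 8 libraries and their ranges did not overlap, although they did per kilobase of coding sequence. Grm5 came next of the 6 at 491 ± 210 and 497 ± 98.4, in a range below that of Grm2 which overlapped it per kilobase of coding sequence, then Grm7 at 435 ± 59.4 and 397 ± 34.6, then Grm4 at 337 ± 83.8 and 325 ± 48.9. Grm5 was above Grm7 in 7 of 8 libraries and Grm7 above Grm4 in 8 of 8 (5 of 8 by coding length), with ranges that overlapped. Grm8 was lowest, at 169 ± 66.9 and 173 ± 38.1, below Grm4 in 7 of 8 libraries. The order of the means was unchanged with coding length.

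By group, the pair of group II genes made up 70.8% ± 4.11 of the summed level per kilobase of the 6 receptors in controls and 67.8% ± 2.86 in mutants (SD, n = 4 each). Group III held 19.2% ± 1.80 and 20.7% ± 0.871, and Grm5 alone for group I held 4.27% to 13.8% in controls and 9.79% to 14.2% in mutants. The shares of the genotypes overlapped for each group, with group II between 66.6% and 75.1% in controls and between 64.2% and 70.5% in mutants. The lowest share of Grm5, 4.27%, was that of control replicate 1. Group II transcripts were thus the main part of the receptor transcripts measured in every library, on a scale that covers the 6 genes only.

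**Figure D5:**
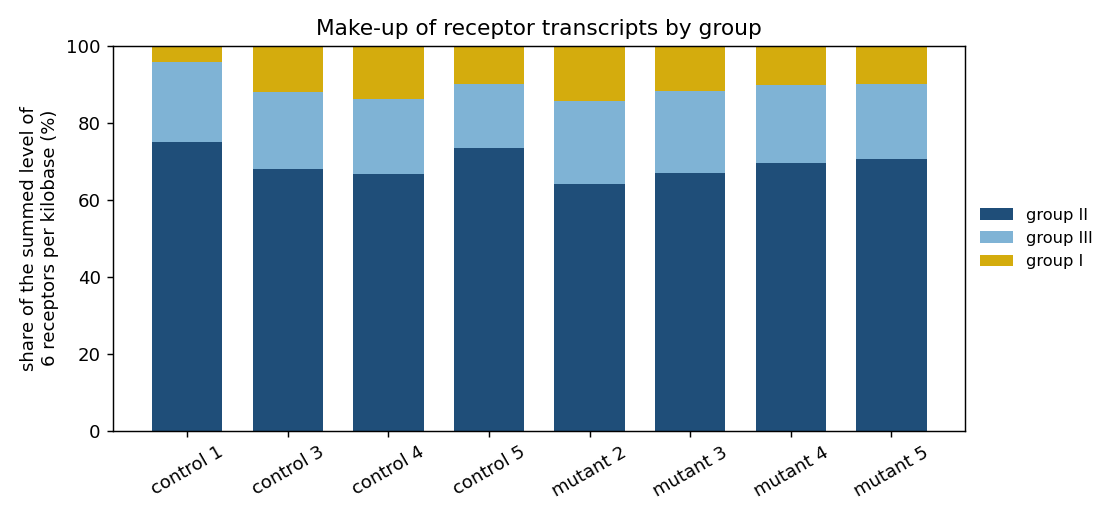
Share (%) of the summed level per kilobase of the 6 receptors held by group II (Grm2 and Grm3), group III (Grm4, Grm7 and Grm8) and group I (Grm5 alone), in each of the 8 libraries. Group II holds 64.2% to 75.1% in every library, and the group I share is smallest, at 4.27%, in control replicate 1.

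Astrocytes make Grm3 and Grm5, and interneurons are the tagged cells, so the marker lists are set beside the receptors. Of 11 astrocyte markers, 0 were called, 7 were below 0 and their median log2 fold change was -0.11. Their summed normalized counts ran from 140660 to 251900 in controls and from 148600 to 167490 in mutants, and 0 markers were at 0 in a library. Of 11 excitatory neuron markers 1 was called lower (Neurod6) and 1 higher, with a median of -0.15 and sums of 116250 to 154160 and 111650 to 138290. The 13 MGE interneuron markers, described above, had a median of -1.02. Of 10 endothelial and mural markers 4 were called higher (Flt1, Kdr, Pdgfrb and Tek; median 0.53), and of 10 oligodendrocyte markers 3 were called lower (Mag, Mog and Opalin; median -0.62). Among all genes tested 3.98% were called higher and 3.17% lower, and 0 genes of any marker list had an adjusted p under 0.05 by limma. The 10 markers of interneurons of the caudal ganglionic eminence, the 8 of oligodendrocyte precursors and the 10 of microglia had 0 called genes, with medians of -0.60, -0.18 and -0.44. The part of cell composition in the receptor values was not tested.

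The proteins that bind or follow these receptors were read from a list of 45 genes, all of which were tested. Of these 1 was called lower and 1 higher, 24 were below 0, and 0 had an adjusted p under 0.05. Both called genes were among the 10 scaffolds and binding partners, whose median log2 fold change was -0.25. Their summed normalized counts were 91903 to 125740 in controls and 82154 to 85934 in mutants. Most of that sum was from 1 gene, Ncdn (neurochondrin), at 68499 to 94874 and 55658 to 61459, a difference that did not pass (log2 fold change -0.46, limma adjusted p = 0.58). Lower values without overlap were found for 2.17% of all genes tested. The count of 2 in 45 stands beside 7.15% of all genes tested.

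Grip1, a PDZ scaffold best known for binding AMPA receptors, was called lower in mutants, at 1274 ± 95.4 against 792 ± 104 normalized counts (SD, n = 4 each). Its log2 fold change was -0.69 (SE 0.20, limma adjusted p = 0.58), and it was not called in CPM. Homer3, of the Homer family that ties group I receptors to the postsynaptic density and to calcium stores, was called higher, at 1061 ± 227 against 1680 ± 556. Its log2 fold change was 0.63 (SE 0.28, limma adjusted p = 0.58), and the call was lost without control replicate 1, control replicate 3, mutant replicate 4 or mutant replicate 5. The other Homer genes did not pass. Homer1 had 1064 ± 302 in controls and 1239 ± 114 in mutants (log2 fold change 0.27, limma adjusted p = 0.72). Homer2 had 3800 ± 953 and 2772 ± 496 (log2 fold change -0.44, limma adjusted p = 0.58), and was called without control replicate 4. Elfn1, a postsynaptic adhesion protein that recruits mGlu7 to the terminals facing it, had 7641 ± 3602 and 4458 ± 1977. It did not pass over all 8 libraries (log2 fold change -0.79, limma adjusted p = 0.58). Elfn1 was called with a pseudocount of 10, a replicate block, or without control replicate 1, control replicate 5, mutant replicate 2 or mutant replicate 3.

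By limma over all 8 libraries, 0 of the signalling genes listed were called, beside 7.15% of all genes tested. DESeq2 and edgeR each called Gng3, a G protein gamma subunit, which was also called without control replicate 4 or control replicate 5. Its normalized counts were 4160 ± 2129 in controls and 2247 ± 593 in mutants (SD, n = 4 each; log2 fold change -0.77, limma adjusted p = 0.58). Kcnj9, a subunit of G protein-gated potassium channels, was called without mutant replicate 4 or mutant replicate 5, and had -0.52 over all libraries (limma adjusted p = 0.58). Tamalin, a binding partner, was also called by DESeq2 and edgeR, and with quantile normalization, CPM, a replicate block or without mutant replicate 2. It was higher in the mutants over all libraries (log2 fold change 0.60) but did not pass (limma adjusted p = 0.58). These genes were named after their values were seen. The 12 genes of the Gq pathway, by which group I receptors act, had a median log2 fold change of 0.09, and the 15 of the Gi and Go pathway, which serves group II and III, had -0.23. The 8 genes of receptor desensitization and RGS proteins, which end G protein signals, had 0.06. Beside these, the median of all genes tested was 0.06.

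The genes whose pattern was nearest to each receptor, by the SD over the 8 libraries of the log2 difference between the pair of genes, were sought among 13755 genes outside the family whose mean over libraries was 100 or more normalized counts. For Grm3 they were Letm1, a protein of the inner mitochondrial membrane (SD 0.0437), and Vezt, a protein of adherens junctions (0.0447). For Grm7 they were Slc25a39, a mitochondrial carrier (0.0574), and Clpb, a mitochondrial chaperone (0.0668). Grm2 was nearest to A230006K03Rik (0.122) and Btbd2 (0.123), and Grm4 to G3bp2, an RNA-binding protein of stress granules (0.0970), and Gpc1, a glypican (0.106). Grm5 was nearest to Slit2, an axon guidance ligand (0.144), and Kit, a receptor tyrosine kinase (0.149). Both were low in control replicate 1 relative to the other controls, which follows from choosing genes that track Grm5 over these libraries. Grm8 was nearest to Tyms, thymidylate synthase (0.122), and Rad51ap2 (0.132).

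Among the receptors themselves the closest pair was Grm3 and Grm7, with an SD of the log2 difference of 0.128 over 8 libraries, followed by Grm2 and Grm3 at 0.193. The farthest apart were Grm5 and Grm8, at 0.787, which were lowest and highest in control replicate 1. These values describe 8 libraries that share their size factors, and no test was made on them.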

How the data were processed

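RNA bound to HA-tagged ribosomes was measured in 4 control and 4 Erbb4 mutant libraries, grouped by genotype from the labels. The authors aligned paired reads with STAR 2.4.0 to mm10, counted reads on constitutive regions of Mouse Fast DB genes and deposited a signal, the counts of each library over its DESeq2 size factor. Whether counting used strand is not given in the sources used here. Dividing each library's values by its smallest value above 0 gave whole reads for 100% of values (tolerance 0.01).

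Genes averaging 10 or more normalized counts in 1 or both genotypes entered limma 3.58.1 (lmFit, then eBayes with trend; R 4.3.3) on log2(normalized count + 1), without covariates, with Benjamini-Hochberg adjustment over 31171 genes. Fold changes are on that scale. Single receptors and ratios of receptors were compared by exact permutation over libraries. The p-values of ratios were adjusted over the pairs, and those of single receptors were not adjusted over the receptors. Alternatives were edgeR 4.0.16 (quasi-likelihood) and DESeq2 1.42.0 on recovered reads, other scalings, pseudocounts and filters, a replicate block and leaving out each library. The limma procedure was tested on simulated data. Levels per kilobase used the longest GENCODE transcript.

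The receptors, partner genes and markers were chosen with earlier results of these data known. The genes named are the 6 receptors, Grm6, Erbb4, the called partner genes, the Homer genes and Elfn1, the called or most abundant markers, and the 2 genes nearest to each receptor. Ncdn, Gng3, Kcnj3, Kcnj9, Plcb3 and Tamalin were named after their values were seen. Some genes that the rule names are not reported here. RefSeq promoter windows were found for 4 of the 6 receptors. The study mentions 2 sequencing batches, but the labels do not give the batch of a library, so no values within batches were made.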

Additional observations from a re-analysis of the deposited data

How the results depend on the processing

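Receptors called numbered 0 under every alternative tried. The count of all genes called, 2229, fell to 14 at an adjusted p under 0.05, and ran from 1194 (without mutant replicate 4) to 3767 (without control replicate 5) when 1 library was left out, with 1229 without mutant replicate 5. Without adjustment over the receptors, Grm3 was the 1 receptor past an exact permutation p of 0.05. That count was 0 with quantile normalization and 0 in CPM, scalings added after seeing the data for this test, and 0 to 1 when 1 library was left out (0 without control replicate 1). Partner genes called, 2, became 4 with DESeq2, 4 with edgeR and 1 with limma without trend, and 1 to 4 with 1 library left out (1 without control replicate 3 and 4 without control replicate 4, control replicate 5 or mutant replicate 2). Receptor pairs whose ratio differed numbered 0, and 0 to 1 with 1 library left out (1 without control replicate 1). Signs turned for Grm4 (0.018 with quantile normalization, 0.15 in CPM, -0.17 to 0.093 with 1 library left out), Grm7 (0.058 in CPM), Grm5 (-0.24 to 0.33 with 1 library left out) and Grm8 (-0.18 to 0.33), and the cause was not tested. Grm2 and Grm3 stayed below 0, at -0.33 to -0.06 and -0.27 to -0.06 over these settings.

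Same-numbered libraries deviated together by correlations of 0.0823 to 0.1004 (3 pairs), not all over 0.1, so the numbers were not taken to pair them. Other pairs ran from -0.115 to 0.0847. Control replicate 3 with mutant replicate 2 (0.0828), control 4 with mutant 5 (0.0816) and control 5 with mutant 4 (0.0847) were about as high, and control 3 with mutant 4 was lowest. Libraries numbered 3 and below and those numbered 4 and 5 thus deviated in different directions, and whether this follows the 2 sequencing batches was not tested, since the labels give no batch. A replicate block takes its genotype difference from the 3 pairs of replicates 3, 4 and 5 only. Replicate 1 occurs only in controls and replicate 2 only in mutants, so neither adds to it. With this block, Grm5 was -0.34, and 7 partner genes (Gng3, Kcnj3 and Plcb3 among them) and 0 receptors were called. In all 3164 genes were called (1719 lower and 1445 higher), and 0 had an adjusted p under 0.05. Counts per receptor were high enough that counting error was small beside the spread among 4 libraries. For Grm3 the outcome depended on the test and on the scaling, and limma used a larger error than the small spread of Grm3 would give.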

Other observations

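Grm6, the group III receptor of retinal ON bipolar cells, was at 0 in all 4 controls and in mutant replicates 3 and 4. It had 23.1 and 5.95 normalized counts in mutant replicates 2 and 5, below the level needed for testing.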
